A study of Mus musculus with 7 samples.

Results

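Potassium channel genes of the mouse were followed in the adrenal gland from late gestation to adulthood. The members are all gene symbols made of Kcn, further letters and a closing number, from Kcna1 to Kcnv2, and they include Kcnk3 and Kcnk9, the TASK channels. There were 92 of them among the 35976 symbols measured by RNA sequencing of total RNA. The animals were C57BL/6J mice, an inbred strain, with no genetic change or treatment named in the labels. Each of the 7 libraries was 1 pool of whole glands, and the pools held 40 glands of E18.5 embryos (late gestation, sex not determined), 16 from males and 22 from females at postnatal day 1 (P1), 6 of each sex at 2 weeks and 4 of each sex at 12 weeks. No group had a replicate, so the p-values below compare ages over the male and the female pool of each age and measure only the spread between these pools.

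Potassium channels let potassium leave or enter a cell and so set its membrane potential. In the adrenal cortex, aldosterone-producing zona glomerulosa cells rest at a strongly negative potential that is carried largely by background potassium channels, among them the TASK channels, and closing these channels depolarizes the cell and lets calcium in to drive steroid production. In the chromaffin cells of the medulla, which release catecholamines, calcium-activated and voltage-gated potassium channels shape and end action potentials. Loss of TASK channels disturbs aldosterone secretion in mice, and mutations of the inward rectifier KCNJ5 are a known cause of aldosterone-producing adenomas in people.

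The TASK channels belong to the K2P family of background channels, whose subunits carry a tandem pair of pore domains. Kcnk3 lies on chromosome 5 (chr5:30588170-30625270, plus strand, GRCm38) and Kcnk9 on chromosome 15 (chr15:72501873-72548614, minus strand). A matching stretch of their first coding exons is shown because it is where these transcripts resemble each other, and read counts of related genes are safe only where the transcripts differ. The stretches are coding bases 13 to 92 of each transcript, 80 bases each, at chr5:30588329-30588408 and chr15:72546188-72546267. Capitals mark identical bases, 5′ to 3′.
Kcnk3: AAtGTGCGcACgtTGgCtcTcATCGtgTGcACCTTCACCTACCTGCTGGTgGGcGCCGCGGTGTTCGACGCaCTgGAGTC
Kcnk9: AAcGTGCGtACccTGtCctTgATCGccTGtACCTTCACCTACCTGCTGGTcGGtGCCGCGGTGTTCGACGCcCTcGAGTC
Of the 80 bases, 65 were identical (81.25%), and the longest run without a difference was 20 bases. Among all pairs of member transcripts in the GENCODE M21 annotation, 11 pairs shared a run of at least 50 bases and 0 pairs shared one of at least 100. The longest run in coding sequence was 91 bases, between Kcna5 and Kcna6, and its effect on their read counts was not tested.

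The labelled tissue was checked against its markers. All 8 cortex markers, all 5 zona glomerulosa markers and all 10 chromaffin markers had reads in every library. The values below are normalized counts, that is, reads divided by 1 size factor per library, and assigned reads ranged from 15184210 in the 12-week male pool to 23551289 in the P1 male pool. Both P1 pools stood apart, and the E18.5 pool shared some of what set them apart. In the library labelled P1 female, 4 Y-linked genes stood at 15.6% to 28.1% of their P1 male level (median 21.0%), which goes against the label in part; it is called P1 female below after that label. Summed counts of 8 kidney markers were 4367 in the P1 male and 916 in the P1 female library, 430 at E18.5 and 1.40 to 15.9 from 2 weeks on. Schwann cell markers (8 genes) summed to 9079 in the P1 female library and to 1898 to 3302 in the other 6. Skeletal muscle markers (10 genes) summed to 156043 in the P1 female library, 84939 in the P1 male, 42303 at E18.5 and 69.0 in the 12-week female. Liver markers (7 genes) summed to 297693 at E18.5, 377234 and 258424 at P1 (male first) and 433 and 417 at 12 weeks. Exocrine pancreas markers (8 genes) summed to 4186 in the P1 male library, 80.6 in the P1 female, 21.8 at E18.5 and 1.76 to 3.39 later. Fat markers (6 genes) summed to 2915 and 3065 at P1, 44516 and 49301 at 2 weeks and 31738 and 26342 at 12 weeks. Of these, Ucp1 and Cidea mark brown fat and the others fat in general. Ucp1 was at 19373 and 21706 at 2 weeks and 2705 and 2197 at 12 weeks. Cfd was at 5783 and 5638 at 2 weeks and 11416 and 13114 at 12 weeks. Counts of called members, and the results of several members, are therefore also given with each P1 pool left out. Other results that rest on P1 are not, among them those of genes outside the family. In whole glands, fewer cells of a type and less RNA per cell cannot be told apart.

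Transcripts of Kcnk3 dominated the family at every age. Kcnk3 alone held 44.8% to 63.0% of all member counts, and per kilobase of exon 57.3% to 75.9%. The mean level per kilobase was 4925 for Kcnk3, 290 for Kcnma1, 179 for Kcnn2, 151 for Kcnj8, 123 for Kcnk5 and Kcng3 and 97.6 for Kcnk9. All members together made up 0.137% of the counts at E18.5, 0.140% and 0.145% at P1 (male and female), 0.221% and 0.202% at 2 weeks and 0.225% and 0.223% at 12 weeks. A mean of at least 10 normalized counts, the limit for testing, was reached by 71 members. The other 21 fell below it, and of these Kcna10 and Kcnk15 had 0 reads in every library.

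Changes with age were tested with limma, a linear model fitted over all genes, and a gene passed at an adjusted p under 0.05. Over the whole family, 36 of 71 tested members passed between P1 and 12 weeks (50.7%), 15 up and 21 down, beside 41.2% of all 16720 genes. In the upward direction this was 21.1% of the members against 17.6% of all genes, and in the downward direction 29.6% against 23.5%. The members' median log2 difference was -0.48, and that of all genes -0.03. This downward lean depended on low members and on single pools. With a mean of at least 50 counts, 13 of 48 members rose and 13 fell (54.2% called, beside 41.1% of all genes). The median was then -0.19, against -0.01 for all genes. Under the main filter the member median was -0.12 without the 12-week female library and -0.59 without the 12-week male. From P1 to 2 weeks 14 members passed, 9 up and 5 down, beside 16.4% of all genes (5.89% up, 10.5% down). From 2 to 12 weeks 14 passed, 3 up and 11 down, beside 15.3% of all genes (5.4% up, 9.89% down), with a member median of -0.37 against -0.03. No share over the family was tested against that of all genes.

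These counts leaned on single pools and on the filter. Kcnj1 and Kcnh5, which are counted as falling from P1 to 12 weeks, had 0 reads in both 12-week pools. They reached the mean of 10 only through earlier libraries, so the filter itself favours a fall in them. That holds too for Kcnj16, Kcnh7 and Kcnk10, each below 10 counts in both 12-week pools. Kcnj6 held 3 reads in the E18.5 library and in each P1 library. It reached the mean only through later libraries, so the filter favours a rise in it. Where such a gene keeps its call below, the filter favours that call. Without the P1 male library the count between P1 and 12 weeks was 19 (26.8% of the tested members, beside 21.5% of all genes), and without the P1 female library 17 (23.9% beside 19.2%). With either P1 library left out, 0 members were called from P1 to 2 weeks, and of all 16720 genes 2 without the male and 28 without the female, so every call for that step named below rests on both P1 pools. Leaving out either 2-week library also cut the calls from P1 to 2 weeks, over all genes as well as over members. With either 2-week library left out, 0 members were called from 2 to 12 weeks (of all genes 3.18% without the male and 2.52% without the female), so the calls for that step rest on both 2-week pools. Leaving out either P1 library also cut the calls from 2 to 12 weeks, again over all genes as well as over members. Whichever P1 library was left out, 5 upward and 6 downward calls of the P1 to 12-week comparison remained: Kcnab3, Kcnj6, Kcnma1, Kcnn2 and Kcnq1 rose, and Kcnh5, Kcnh7, Kcnj1, Kcnj16, Kcnk10 and Kcnn4 fell.

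**Figure D1:**
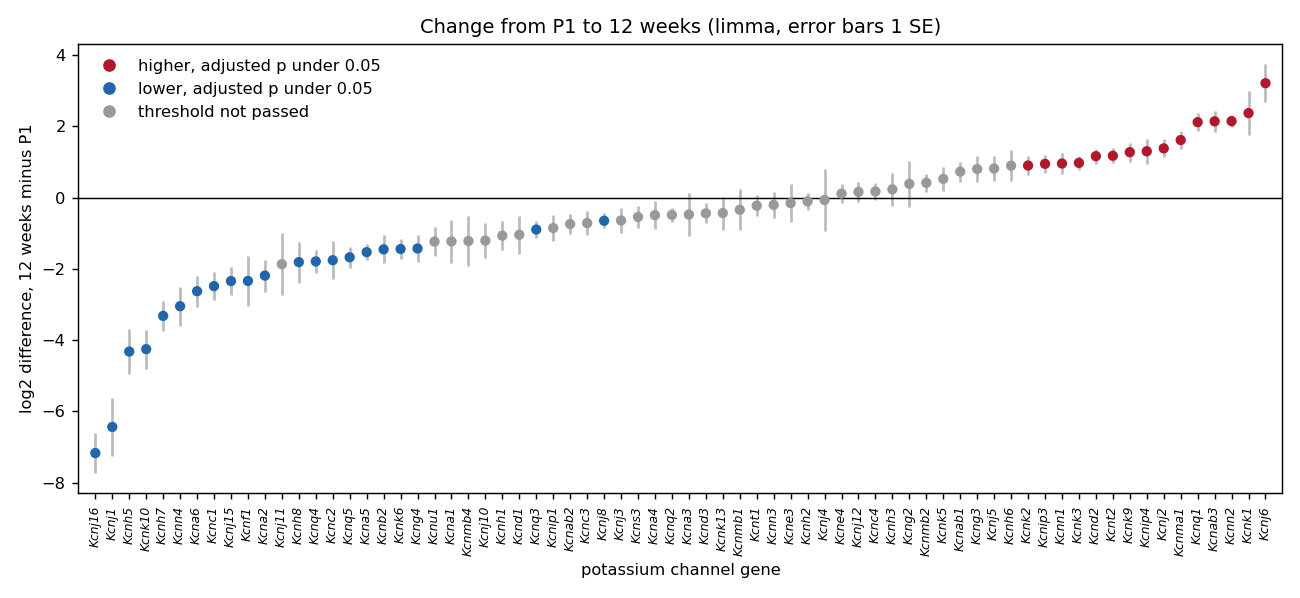
Log2 difference from P1 to 12 weeks (vertical axis, 12 weeks minus P1) for 70 of the 71 tested members in order of size, with bars of 1 SE from limma. Red marks the 15 that rose, blue the 21 that fell and grey those that did not pass an adjusted p of 0.05.

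**Figure D2:**
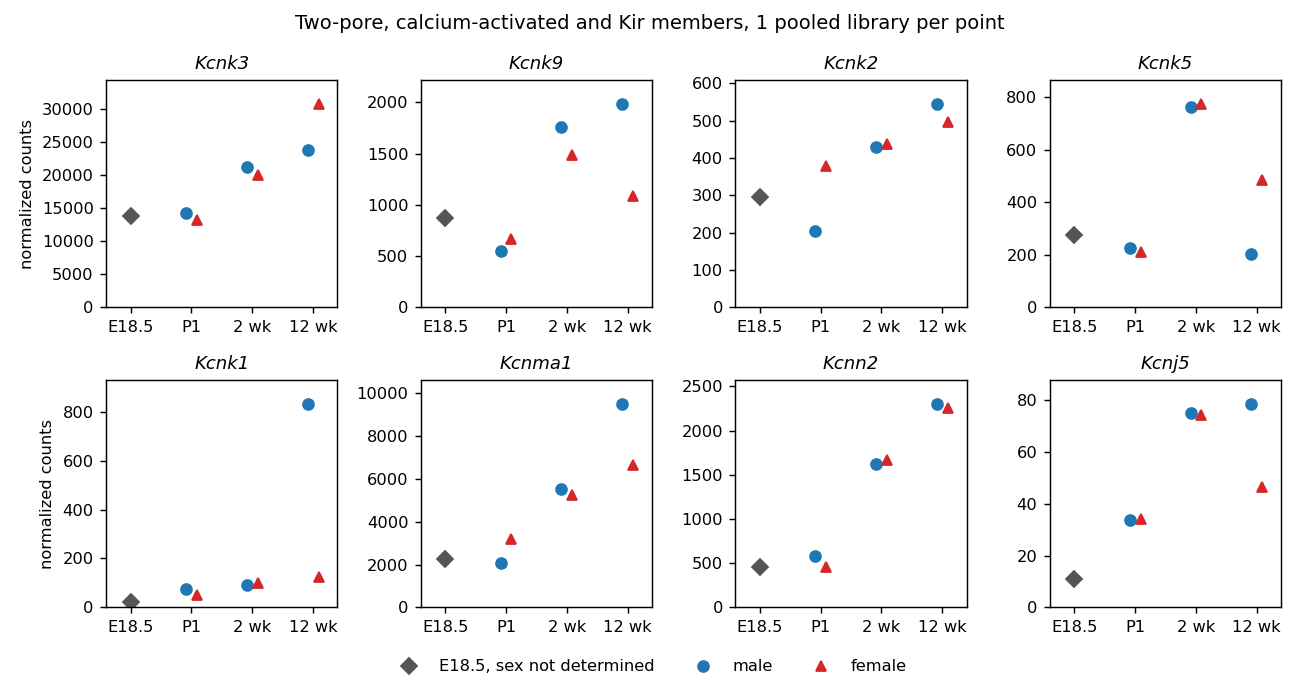
Normalized counts (vertical axes, each from 0) of 8 potassium channel genes by age, with 1 pooled library per point: grey for E18.5, blue for male and red for female. Kcnk3 was at 13208 to 14320.5 at E18.5 and P1 and at 20043 or more from 2 weeks on, and Kcnk1 was at 830.5 in the 12-week male library against 123 in the female.

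Kcnk3, which encodes TASK-1, rose after birth. It was at 13880.1 normalized counts at E18.5, 14320.5 in the P1 male and 13208 in the P1 female library, 21151 and 20043 at 2 weeks, and 23746 and 30712 at 12 weeks (male first here and below). Neither 12-week value overlapped with P1, and the 12-week female value was the highest. The log2 difference from P1 to 12 weeks was 0.97 ± 0.198 (SE; limma, adjusted p = 0.00954). Without the P1 female library it was 0.84 (adjusted p = 0.117) and without the P1 male library 1.11 (adjusted p = 0.0720), so the call rests on having both. From P1 to 2 weeks the difference was 0.58 ± 0.198 and did not pass (adjusted p = 0.0976). Over P1 to 12 weeks 3 of 8 cortex markers rose and 0 fell. Their sums were 382066 and 249111 at P1, 513879 and 519406 at 2 weeks and 847965 and 1124166 at 12 weeks. All 6 fat markers rose. The part of cortex and fat in the rise of Kcnk3 was not tested.

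Kcnk9, which encodes TASK-3, rose between P1 and 2 weeks. Its values were 873 at E18.5, 549.9 and 669 at P1, 1756 and 1483 at 2 weeks, and 1983 and 1086 at 12 weeks. The P1 pair lay below every other library. The log2 difference from P1 to 2 weeks was 1.41 ± 0.265 (limma, adjusted p = 0.0173) and from P1 to 12 weeks 1.27 ± 0.265 (adjusted p = 0.0102). From 2 to 12 weeks it was -0.14 ± 0.265 (adjusted p = 0.762), with the male pool slightly up and the female pool down. Without the P1 male library the P1 to 12-week difference was 0.85 (adjusted p = 0.0911), and without the P1 female library it was 1.69 (adjusted p = 0.0314). The first step was not called without either P1 pool (adjusted p = 0.145 without the male, 0.0696 without the female). From P1 to 2 weeks 3 of 5 zona glomerulosa markers rose. The sums of all 5 were 9894 and 16230 at P1, 19598 and 18428 at 2 weeks and 12077 and 16325 at 12 weeks. All 6 fat markers rose from P1 to 2 weeks. The part of zona glomerulosa and fat in the rise of Kcnk9 was not tested.

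The ratio of Kcnk3 to Kcnk9, per kilobase, was 49.2 at E18.5, 80.6 and 61.1 at P1, 37.3 and 41.8 at 2 weeks, and 37.1 and 87.5 at 12 weeks. Male and female pools were thus close in this ratio at 2 weeks and far apart at 12 weeks, where the male had more Kcnk9 and the female more Kcnk3. With 1 pool per sex this difference has no replicate check. Over the 7 libraries, the members whose log2 profile lay nearest to Kcnk3 were Kcnj6 (Pearson's r = 0.974), Kcnn2 (0.95) and Kcnq1 (0.935). For Kcnk9 they were Kcnh6 (0.908), Kcnab3 (0.881) and Kcnip4 (0.879), while Kcnk3 and Kcnk9 had r = 0.687 with each other. These 7 libraries share ages, so the correlations are descriptions with no test.

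The other background channels went their own ways. Of 14 K2P members, 8 were tested. From P1 to 12 weeks 4 rose and 2 fell, beside 17.6% of all genes up and 23.5% down. With so few genes in a class, no class count here or below was tested against these shares. Kcnk2 encodes TREK-1, a stretch- and lipid-gated channel. It was at 296 at E18.5, 204 and 379.7 at P1, 429 and 438 at 2 weeks and 544 and 497 at 12 weeks, and its log2 difference from P1 to 12 weeks was 0.90 ± 0.272 (limma, adjusted p = 0.0381, and 0.193 without the P1 male library, 0.0304 without the P1 female). Kcnk10 encodes the related TREK-2. It held 152 counts at E18.5, 93.3 and 135 at P1 and 146 and 88.2 at 2 weeks, and then only 9.79 and 2.26 at 12 weeks (7 and 2 reads). All 12-week values lay far below all earlier ones. The fitted log2 difference from 2 to 12 weeks was -4.27 ± 0.545 (limma, adjusted p = 0.00527), a size that depends on the pseudocount at so few reads.

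Kcnk5, which encodes the alkaline-activated channel TASK-2, peaked at 2 weeks. It was at 274 at E18.5, 226 and 212 at P1, 764 and 774 at 2 weeks, and 204 and 486 at 12 weeks. The 2-week pair stood above every other library. The log2 difference from P1 to 2 weeks was 1.81 ± 0.336 (limma, adjusted p = 0.0169), and from 2 to 12 weeks -1.28 ± 0.336 (adjusted p = 0.0492). Without the P1 male library the first step had an adjusted p of 0.118, without the P1 female 0.180 and without the 2-week male 0.184. Kcnk6, a weakly conducting K2P member, was at 213 at E18.5 and at 223 and 286 at P1, and at 107 and 118 at 2 weeks and 112 and 75.8 at 12 weeks. It fell from P1 to 2 weeks by 1.16 on the log2 scale (limma, adjusted p = 0.0411).

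Kcnk1 encodes TWIK-1, a K2P channel known for small currents. Its counts were 21.0 at E18.5, 75.3 and 49.7 at P1, 91.6 and 101 at 2 weeks, and 830.5 in the male against 123 in the female pool at 12 weeks. The 12-week male library, with 594 reads, stood apart from all others. In the P1 to 12-week fit the log2 difference was 2.37 ± 0.628 (limma, adjusted p = 0.0243), with 11.03-fold in the male and 2.48-fold in the female pools. Without the P1 male library the adjusted p was 0.220 and without the P1 female 0.137. The promoter window of Kcnk1 from RefSeq (GRCm38.p6, chr8:125994852-125995151, plus strand, 250 bases before to 50 after the start) is shown because this gene had the widest gap between the sexes among members with over 100 reads in both 12-week pools. It held none of the 3 motifs searched and is printed without capitals. This window lies inside the gene span, which begins at chr8:125993655, and so does not cover the 5′ end of that span.
Kcnk1: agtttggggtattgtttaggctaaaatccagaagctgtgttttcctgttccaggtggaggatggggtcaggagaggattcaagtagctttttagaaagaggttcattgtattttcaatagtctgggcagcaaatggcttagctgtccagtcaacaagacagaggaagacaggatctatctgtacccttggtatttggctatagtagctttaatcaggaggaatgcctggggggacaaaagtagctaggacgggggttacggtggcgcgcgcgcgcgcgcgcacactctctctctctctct

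**Figure D3:**
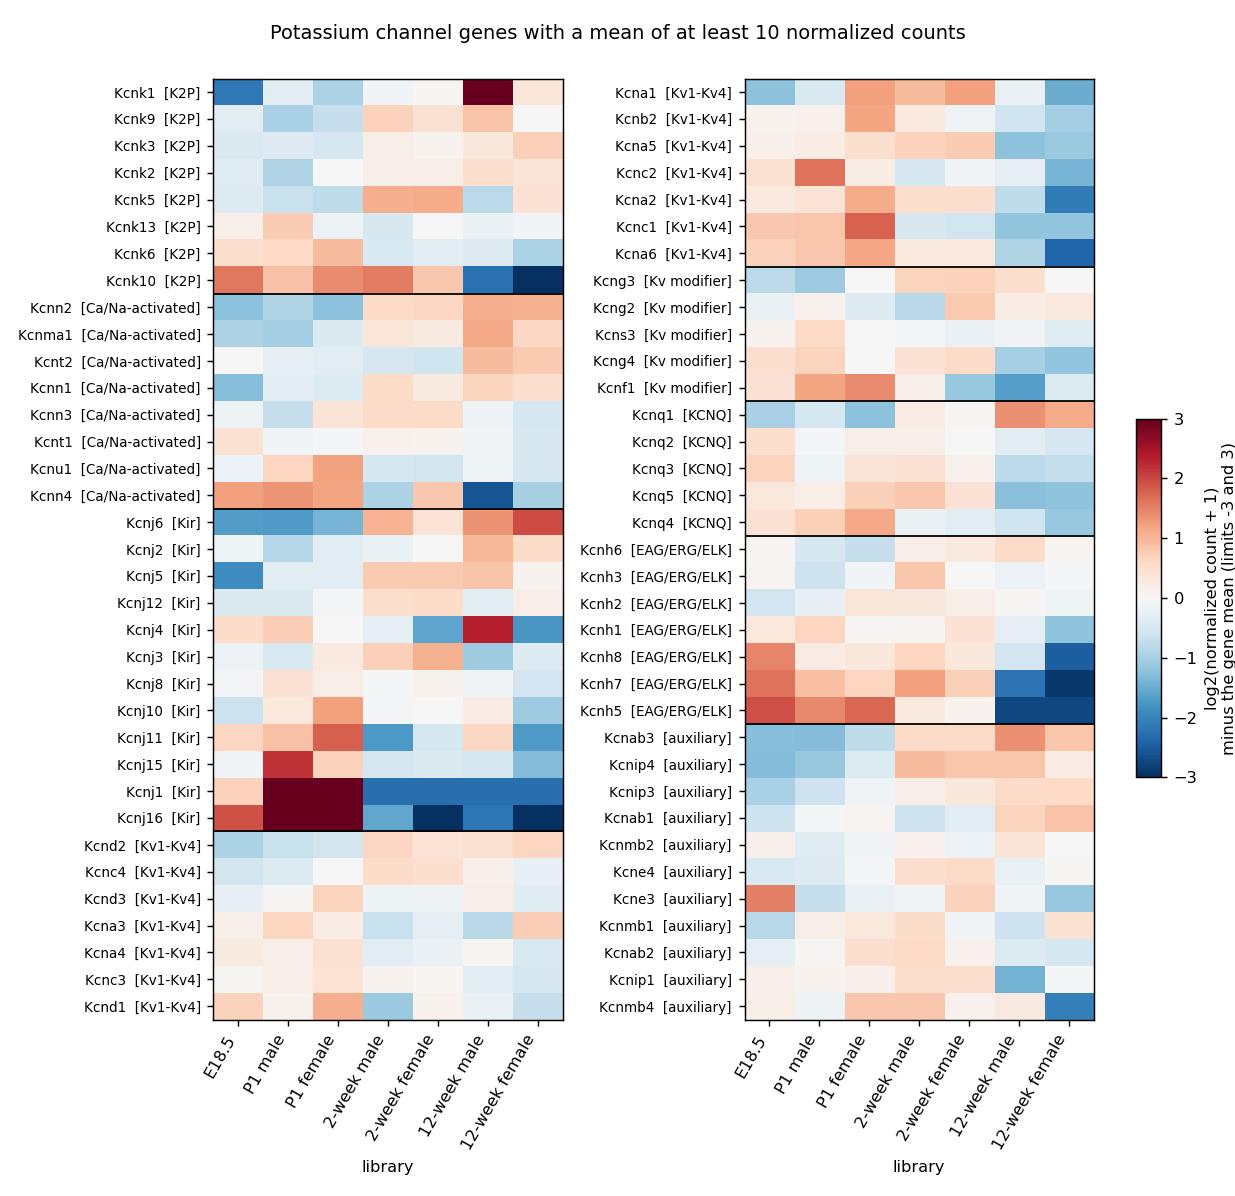
Each row is 1 of 70 of the 71 tested members and each column 1 library. Colour gives log2(normalized count + 1) minus the gene's mean over the 7 libraries, limited to -3 and 3, and rows are ordered by class and by the change from P1 to 12 weeks. Kcnj1 and Kcnj16 stand out at P1, Kcnk1 and Kcnj4 in the 12-week male library.

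Both a large- and a small-conductance calcium-activated channel rose after birth. Of 8 calcium- or sodium-activated members, all were tested. From P1 to 12 weeks 4 rose and 1 fell, beside 17.6% of all genes up and 23.5% down. Kcnma1 encodes the pore of the large-conductance BK channel, which opens on calcium and depolarization and is abundant in chromaffin cells. It was at 2269 at E18.5, 2097 and 3209.9 at P1, 5546 and 5240.4 at 2 weeks, and 9492 and 6642 at 12 weeks. From P1 on, each age lay above the one before without overlap. The log2 difference from P1 to 2 weeks was 1.05 (limma, adjusted p = 0.0401) and from P1 to 12 weeks 1.61 ± 0.262 (adjusted p = 0.00406).

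Kcnn2 encodes the small-conductance SK2 channel, which calcium opens through bound calmodulin. It was at 458 at E18.5, 579 and 457 at P1, 1627 and 1669 at 2 weeks, and 2299 and 2257 at 12 weeks. Male and female pools were nearly equal from 2 weeks on. Its log2 difference was 1.68 ± 0.159 from P1 to 2 weeks (limma, adjusted p = 0.00295) and 2.14 ± 0.159 from P1 to 12 weeks (adjusted p = 0.00027). The first step was not called without the P1 male (adjusted p = 0.0746) or the P1 female library (0.0544), while the longer one was (0.0188 and 0.0172). Chromaffin marker sums were 48978 and 94356 at P1, 126906 and 109011 at 2 weeks and 84470 and 100351 at 12 weeks, and of these 10 markers 2 rose and 2 fell from P1 to 12 weeks. Their part in the rise of Kcnma1 and Kcnn2 was not tested.

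Kcnt2, which encodes a sodium-activated channel, rose late. It was at 178 at E18.5, 146 and 145 at P1, 127 and 118 at 2 weeks, and 348 and 310.0 at 12 weeks, so the 12-week pools lay above all others. Its log2 difference from 2 to 12 weeks was 1.41 ± 0.207 (limma, adjusted p = 0.00798). Kcnn4, the intermediate-conductance SK4 channel of blood and epithelial cells, went the other way, from 73.1 at E18.5 and 76.9 and 70.6 at P1 to 15.1 and 53.8 at 2 weeks and 4.19 and 14.7 at 12 weeks (3 and 13 reads). The log2 difference from P1 to 12 weeks was -3.05 ± 0.551 (limma, adjusted p = 0.0061). All 6 erythroid markers also fell over that span, and their part in this was not tested.

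Among the inward rectifiers (Kir), which pass current more easily into the cell than out of it, 15 members were present and 12 tested. From P1 to 12 weeks 2 rose and 4 fell, beside 17.6% of all genes up and 23.5% down. Kcnj5, the GIRK4 subunit of a G-protein-gated channel, was low throughout. It was at 10.9 at E18.5, 33.5 and 34.2 at P1, 74.7 and 74.1 at 2 weeks, and 78.3 and 46.4 at 12 weeks. Both P1 values lay below all later ones, but the log2 difference did not pass, at 1.11 from P1 to 2 weeks (limma, adjusted p = 0.0741) and 0.81 ± 0.341 from P1 to 12 weeks (adjusted p = 0.0991). Kcnj6, its partner subunit GIRK2, had 3 reads in each of the first 3 libraries, and 25, 16, 20 and 38 reads in the 2-week and 12-week pools. It rose from P1 to 12 weeks by a fitted log2 difference of 3.21 ± 0.527 (limma, adjusted p = 0.00426), a size that depends on the pseudocount.

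Kcnj2, the strong inward rectifier Kir2.1, was at 402 at E18.5, 245 and 348 at P1, 386 and 440.2 at 2 weeks, and 892 and 649 at 12 weeks. The 12-week values were the highest, and the log2 difference from P1 to 12 weeks was 1.38 ± 0.251 (limma, adjusted p = 0.00622, and 0.0739 without the P1 male library). Kcnj8, the pore of a vascular ATP-sensitive channel, ran from 253 to 512 and fell from P1 to 12 weeks by 0.65 on the log2 scale. Kcnj8 and, below, Kcnd2 were chosen after their values were seen.

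A further 3 Kir members were high at P1 and low or absent later. Kcnj1 encodes ROMK, the renal outer medullary potassium channel. It was at 6.72 at E18.5, 165 in the P1 male and 44.2 in the P1 female library, and at 0 in all 4 later libraries. With later libraries set to a floor of 3 reads each, the level was at least 39.4-fold lower in the male and at least 13.0-fold lower in the female pool at 12 weeks than at P1. Kcnj16, an epithelial subunit that acts with Kcnj10 and Kcnj15, was at 39.5 at E18.5, 351 and 140.2 at P1, and 2.67, 0, 1.40 and 0 from 2 weeks on. Its fitted log2 difference from P1 to 2 weeks was -6.86 ± 0.556 (limma, adjusted p = 0.002), a size that depends on the pseudocount. Kcnj15 was at 93.3 at E18.5, 450.0 and 160.1 at P1, and between 39.6 and 72.3 later, and its log2 difference from P1 to 2 weeks was -1.92 ± 0.392 (adjusted p = 0.0224).

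In these Kir members the P1 male library was the highest, the P1 female next and E18.5 after it. The sums of the kidney and of the exocrine pancreas markers had the same order. Single markers did not all keep it. Aqp2 was at 27.7 at E18.5 and 13.2 in the P1 female library, and Pnlip had 0 reads in both P1 libraries. The kidney sums were 4367, 916 and 430 in those libraries, and 13.3, 15.9, 1.40 and 6.79 from 2 weeks on. All 8 kidney markers fell from P1 to 2 weeks, and Umod was at 0 in each of the 4 later libraries. The exocrine pancreas sums were 4186, 80.6 and 21.8 in the same libraries, and 4 of the 7 tested markers fell from P1 to 2 weeks. The part of kidney or pancreas RNA in the Kcnj1, Kcnj15 and Kcnj16 values was not tested.

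**Figure D4:**
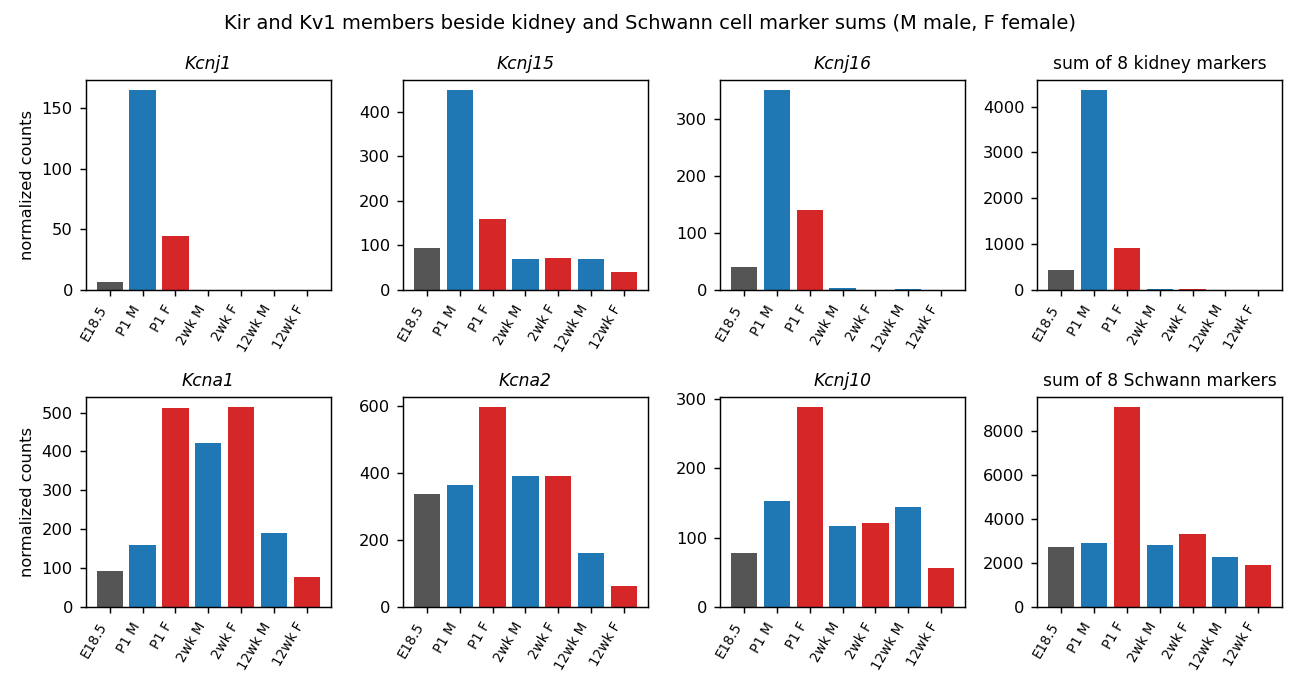
Bars from 0 give normalized counts in the 7 libraries for 6 members and for the summed markers of kidney and of Schwann cells. Kcnj1, Kcnj15 and Kcnj16 peaked in the P1 male library with the kidney sum (4367), and Kcna2 and Kcnj10 in the P1 female library with the Schwann sum (9079). Kcna1 was at 512 in the P1 female library and at 422 and 514 in the 2-week male and female libraries.

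The first of 4 RefSeq promoter windows of Kcnj16 (GRCm38.p6, chr11:110967783-110968082, plus strand) is shown because it was 1 of 3 member windows with the letters AAGGTCA, the core bound by the steroidogenic factor SF-1. Capitals mark the match, which lies on the opposite strand 190 bases before the start.
Kcnj16: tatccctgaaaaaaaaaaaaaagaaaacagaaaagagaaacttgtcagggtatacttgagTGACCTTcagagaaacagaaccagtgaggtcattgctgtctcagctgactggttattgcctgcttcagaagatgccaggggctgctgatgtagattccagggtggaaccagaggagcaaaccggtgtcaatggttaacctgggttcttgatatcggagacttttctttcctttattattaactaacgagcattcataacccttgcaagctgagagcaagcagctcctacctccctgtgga
RefSeq windows of 300 bases existed for 67 of the 92 members, 92 windows in all. On either strand AAGGTCA stood in 3 of them (3.26%; Kcnf1, Kcnh1 and Kcnj16) and in 4.72% of all 32851 windows. TGACGTCA, the full cyclic AMP response element, stood in 0 of 92 and in 1.79% of all, and TATAAA in 5 of 92 (5.43%) and in 13.6% of all. None of the 3 motifs contains another. The median GC content of member windows was 58% and that of all windows 52.67%. A match is a description of letters and no evidence of binding.

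The voltage-gated pore subunits are the largest class. Of 17 members of the Kv1 to Kv4 groups, 15 were tested, and from P1 to 12 weeks 1 rose (Kcnd2) and 6 fell, beside 17.6% of all genes up and 23.5% down. Kcna2, Kcna5 and Kcna6 fell between 2 and 12 weeks. Kcna2, a delayed rectifier of axons, was at 339 at E18.5, 364 and 597 at P1, 391 and 389.9 at 2 weeks, and 162 and 63.4 at 12 weeks, with a log2 difference of -1.93 ± 0.447 from 2 to 12 weeks (limma, adjusted p = 0.0340). Kcna6 was at 334 at E18.5, 363 and 460.3 at P1, 254 and 258 at 2 weeks, and 110.5 and 38.5 at 12 weeks, with -1.95 ± 0.434 (adjusted p = 0.0305). Kcna5, a rapidly activating channel, was at 149.6 at E18.5, 159.6 and 191 at P1, 221 and 232 at 2 weeks, and 57.3 and 62.2 at 12 weeks, with -1.90 ± 0.227 (adjusted p = 0.00432). In all 3 genes both 12-week pools lay below every earlier one, and in Kcna2 and Kcna6 the female pool was the lower. Kcna5 and Kcna6 share the longest run of bases among the members, and any effect of it on their counts was not tested.

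Schwann marker sums over the same step were 2809 and 3302 at 2 weeks and 2254 and 1898 at 12 weeks, and 2 of the 8 markers fell. Their part in the change of the Kv1 genes, which myelinated nerve is known to use, was not tested. Kcnc1, a fast Kv3 channel, fell earlier, from 75.6 at E18.5 and 76.1 and 148 at P1 to 30.2 and 28.2 at 2 weeks and 18.2 and 18.1 at 12 weeks. Its log2 difference from P1 to 2 weeks was -1.83 ± 0.398 (limma, adjusted p = 0.0275). Skeletal muscle marker sums were 84939 and 156043 at P1 against 201 and 6203 at 2 weeks, and their part in this fall was not tested.

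Kcnd3 and Kcng3, both among the abundant members, did not pass from P1 to 12 weeks. Kcnd3, an A-type Kv4 channel, ran from 486 to 1007, the highest being the P1 female library, with a log2 difference from P1 to 12 weeks of -0.44 ± 0.281 (limma, adjusted p = 0.245). Kcng3, a silent modifier subunit that acts in company with Kv2 pores, was at 217 at E18.5, 176 and 374 at P1, 599 and 609 at 2 weeks and 534 and 376 at 12 weeks, with 0.80 ± 0.357 (adjusted p = 0.116). Of the 10 modifier members 5 were tested. From P1 to 12 weeks 0 rose and 2 fell, beside 17.6% of all genes up and 23.5% down.

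Among 5 KCNQ members, all tested, Kcnq1 rose and 3 others fell from P1 to 12 weeks. Over that span 17.6% of all genes rose and 23.5% fell. Kcnq1 encodes a slowly activating channel of heart and epithelia. It was at 58.8 at E18.5, 80.2 and 48.6 at P1, 134 and 119 at 2 weeks, and 301 and 250.03 at 12 weeks, a rise at each step from P1 on, with log2 differences of 1.01 from P1 to 2 weeks (limma, adjusted p = 0.0414) and 1.11 ± 0.252 from 2 to 12 weeks (adjusted p = 0.0325). Kcne1, the auxiliary subunit that slows Kcnq1 in the heart, was too low to test, with 9.24 at E18.5, 18.8 and 4.42 at P1 and 0 to 3.39 later. Kcnq3, an M-current subunit of neurons, was at 751 at E18.5, 434 and 620.3 at P1, 632 and 519 at 2 weeks and 271 and 285 at 12 weeks, and fell from 2 to 12 weeks by 1.04 on the log2 scale (limma, adjusted p = 0.0286).

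The EAG, ERG and ELK genes had 8 members, of which 7 were tested. From P1 to 12 weeks 0 rose and 3 fell, beside 17.6% of all genes up and 23.5% down. Kcnh2, the ERG channel that repolarizes the heart, did not pass, with 271 at E18.5, 340.4 and 519 at P1, 506 and 452 at 2 weeks and 414 and 369 at 12 weeks (log2 difference from P1 to 12 weeks -0.10 ± 0.239, limma, adjusted p = 0.748). Kcnh7, another ERG gene of neurons, was at 73.1 at E18.5, 44.2 and 36.4 at P1 and 55.2 and 38.8 at 2 weeks, and at 4.19 and 2.26 at 12 weeks (3 and 2 reads). Kcnh5, an EAG gene, was at 24.4 at E18.5, 17.2 and 21.0 at P1, 7.12 and 6.18 at 2 weeks and 0 in both 12-week pools. Against a floor of 3 reads per library it was at least 4.10-fold lower in the male and at least 6.18-fold lower in the female pool at 12 weeks than at P1. From 2 to 12 weeks the fitted log2 differences were -3.52 for Kcnh7 (limma, adjusted p = 0.00423) and -2.93 for Kcnh5 (adjusted p = 0.0293). Both sizes depend on the pseudocount at so few reads. Kcnh5 had 8 and 7 reads at 2 weeks. Against the floor, its fall over this step was at least 1.70-fold in the male and at least 1.82-fold in the female pool.

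Auxiliary subunits numbered 15, of which 11 were tested. From P1 to 12 weeks 3 rose and 0 fell, beside 17.6% of all genes up and 23.5% down. Kcnab3, a cytoplasmic beta subunit of Kv1 channels, was at 52.1 at E18.5, 50.7 and 74.0 at P1, 190.4 and 189.7 at 2 weeks and 329 and 227 at 12 weeks. Its log2 difference was 2.14 ± 0.301 from P1 to 12 weeks (limma, adjusted p = 0.00243), while Kcna2, Kcna5 and Kcna6 fell over the same span. Kcnab1, another such subunit, was at 41.2 at E18.5, 62.2 and 67.3 at P1, 40.9 and 50.3 at 2 weeks and 101 and 115 at 12 weeks, and rose from 2 to 12 weeks by 1.23 ± 0.277 (adjusted p = 0.0315). Kcnip4, a calcium-binding partner of Kv4 channels, was at 42.0 at E18.5, 47.5 and 79.5 at P1, 204 and 189.7 at 2 weeks and 189 and 123 at 12 weeks, and rose from P1 to 2 weeks by 1.66 ± 0.350 (adjusted p = 0.0246).

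Between the sexes, 0 of 71 tested members passed over the postnatal ages, beside 0.00598% of all genes (1 gene). At an unadjusted p under 0.05 there were 3 members in limma and 3 in edgeR, which also called 0. The 4 Y-linked genes did not pass either, with a median log2 difference of 7.73, so a count of 0 in this fit says little. The log2 difference, male minus female, was -0.06 ± 0.162 for Kcnk3 and 0.28 ± 0.216 for Kcnk9 (limma, adjusted p = 0.999 for each).

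Each age taken alone has 1 pool of each sex, so the next values are descriptions with no test. At 12 weeks Kcnk1, Kcnj4 and Kcnmb4 were far higher in the male pool. At least 2-fold apart there were 19 of 71 members (26.8%), 13 higher in the male and 6 higher in the female, beside 8.83% of all genes (4.84% and 3.98%). With a mean of at least 50 counts it was 20.8% of the members against 5.95% of all genes. The members' median was 0.37 and that of all genes 0.02. Kcnk1 was 6.73-fold higher in the male pool (95% counting interval 5.48 to 8.34), with 594 against 109 reads. Kcnj4, a Kir2 channel, was 24.1-fold higher in the male (6.24 to 206), with 39 against 2 reads. Kcnmb4, a BK beta subunit, was 5.28-fold higher (2.70 to 11.3) and Kcna6 2.87-fold higher (1.90 to 4.43) in the male. Higher in the female were Kcnip1, a Kv4 partner, by 2.65-fold (1.93 to 3.68) and Kcnk5 by 2.38-fold (1.97 to 2.90). These intervals are exact binomial, and because the reads carry no molecular identifiers they cover the error of counting alone.

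At 2 weeks 7 of 71 members were at least 2-fold apart, 3 higher in the male and 4 in the female, beside 4.24% of all genes (0.568% and 3.67%), and the member median was 0.01. Only Kcnn4 among them reached 50 counts in a library, with 15.1 in the male and 53.8 in the female, 3.56-fold higher in the female (2.05 to 6.50). At P1 8 members were at least 2-fold apart, 4 in each direction, beside 6.78% of all genes (3.75% higher and 3.03% lower in the male). Kcna1, a Kv1 channel of nerve, was 3.23-fold higher in the library labelled female (2.72 to 3.83), at 512 against 159. Kcnn3, Kcng3 and Kcnb2 were 2.15-, 2.13- and 2.09-fold higher there. Kcnj1 was 3.74-fold (2.66 to 5.40), Kcnj15 2.81-fold, Kcnc2 2.72-fold and Kcnj16 2.504-fold higher in the P1 male library. The Schwann sum was 9079 in the P1 female and 2910 in the P1 male library and the kidney sum 916 and 4367, in the same directions as Kcna1 and Kcnj1, and their part was not tested.

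**Figure D5:**
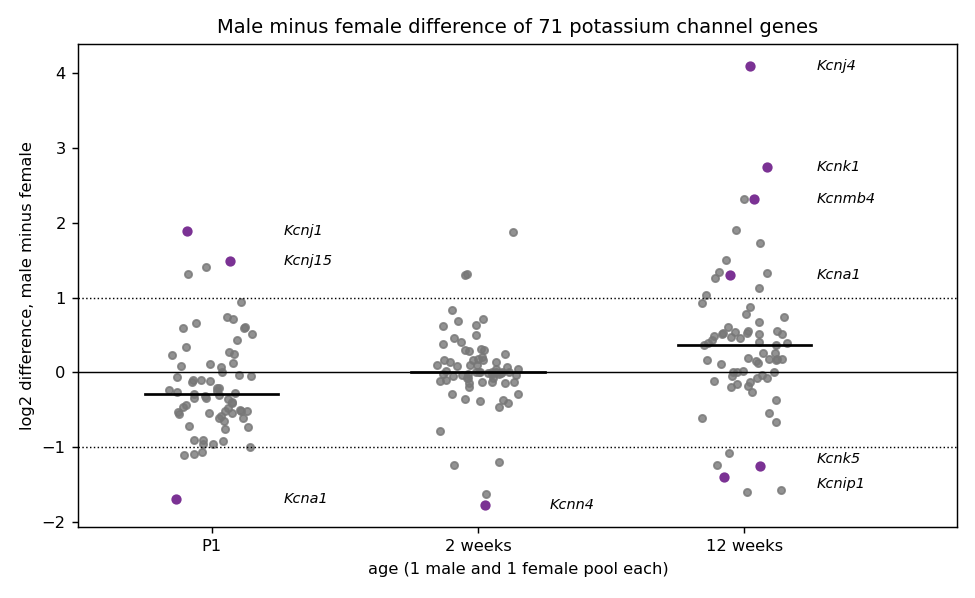
Each point is 1 of the 71 tested members, its height the log2 difference between the male and the female pool of that age (1 pool each), and bars mark the medians. Dotted lines mark 2-fold, which 8 members passed at P1, 7 at 2 weeks and 19 at 12 weeks. Kcna1 is below 0 at P1 and above it at 12 weeks.

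Around birth the 2 steps from E18.5, which share that library, were read side by side with no test. Against the P1 male library 9 of 71 members were at least 2-fold apart, 7 higher and 2 lower at P1, beside 8.4% of all genes (4.9% higher, 3.5% lower). Against the P1 female library it was 12, 10 higher and 2 lower, beside 13.2% (7.04% higher, 6.12% lower). Kcnj1 was 24.6-fold higher at P1 in the male step (12.2 to 57.7), Kcnj16 8.89-fold (6.57 to 12.3), Kcnj15 4.83-fold (3.93 to 5.97) and Kcnk1 3.58-fold (2.28 to 5.82). In the female step Kcna1 was 5.49-fold higher (4.46 to 6.82), Kcnj10, a glial Kir4.1 channel, 3.73-fold (2.93 to 4.78), Kcnj16 3.55-fold (2.52 to 5.07) and Kcnu1 2.67-fold (1.69 to 4.32). Lower at P1 in both were Kcne3, an epithelial auxiliary subunit, at 82.3 against 17.2 and 24.3 (4.79- and 3.39-fold), and Kcnh8, an ELK channel, at 66.4 against 27.8 and 29.8 (2.39- and 2.23-fold).

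Of 32 genes that set the membrane potential together with the members, 29 were tested. No result with a P1 pool left out is given for them. From P1 to 12 weeks 8 rose, 7 fell and 14 did not pass, beside 17.6% of all genes up and 23.5% down, with a median log2 difference of 0.11. From P1 to 2 weeks 6 rose and 2 fell, and from 2 to 12 weeks 0 rose and 3 fell. The calcium channel pores moved apart. Cacna1c, an L-type pore, was at 1408 and 2106 at P1 and 6018 and 6760 at 12 weeks (log2 difference 1.89 ± 0.219, limma, adjusted p = 0.00121). Cacna1g, a low-voltage-activated T-type pore, was at 288 and 366 at P1 and 21.0 and 13.6 at 12 weeks (-4.19 ± 0.342, adjusted p = 0.000355). Cacna1h, the T-type pore known from the zona glomerulosa, did not pass, with 904 and 1338 at P1 and 1068 and 1984 at 12 weeks (0.40 ± 0.289, adjusted p = 0.298). Atp2b3, a plasma membrane calcium pump, rose by 1.90 ± 0.234 (adjusted p = 0.00152), and Clcn2, a chloride channel of the zona glomerulosa, by 1.46 ± 0.216 (adjusted p = 0.00296). Of the 5 zona glomerulosa markers 2 rose and 0 fell over that span.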

How the data were processed

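RNA sequencing of 7 pooled adrenal libraries was analysed from the table of normalized counts that the authors deposited. Per the submitters' processing notes, CASAVA 1.8.2, HISAT2 2.1.0, HTSeq 0.9.1, DESeq2 2.11.40.6 and build mm10 were named; the gene annotation and strand setting are not given in the sources used here. Every deposited value was a whole read count divided by 1 size factor per library (signal; 100% whole within 0.001 reads), so reads were recovered.

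Differences were computed on log2(normalized count + 1), later minus earlier and male minus female, which understates changes of low genes. Genes with a mean of at least 10 over the 7 libraries were tested (16720) with limma 3.58.1 in R 4.3.3 (trend, two-sided, Benjamini-Hochberg over all of them, threshold 0.05) on the 6 postnatal libraries with age and sex as terms. E18.5 entered no fit. The fits were tested on simulated data with 200 changed genes. Comparisons of 2 single libraries give counts of genes at least 2-fold apart and 95% exact binomial intervals on reads. A level of 3 reads was the floor. Alternatives were pseudocounts of 0.1 and 5, other filters, 2 other scalings, no trend, edgeR 4.0.16 on recovered reads, and leaving out each library. Replicates of a group do not exist, so no spread within an age and sex was measured.

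The members and gene lists were chosen with earlier results of these data known. Genes with values at every library were named by a rule: genes of adrenal background, the 12 highest by mean, the 6 highest and 6 lowest called in each fit with the same sign in both sexes, the 4 highest and 4 lowest at least 2-fold apart and reaching 50 counts in each single-library comparison, and the 3 most similar to Kcnk3 and Kcnk9. Per-kilobase levels used exon lengths from GENCODE M21, coordinates GRCm38.p6, in which all 92 members were matched, and promoters RefSeq. The values of 1 tested member are not reported here; it is counted in the totals but left out of 2 figures.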

Additional observations from a re-analysis of the deposited data

Results flagged for a closer look

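Kcna1 differed between the sexes in opposite directions at 2 ages. The log2 difference, male minus female, was -1.68 at P1, where the library labelled female held Y-linked transcripts and the highest Schwann marker sum, and 1.29 at 12 weeks. The Kcna1 values were 159 and 512 at P1 and 190.1 and 76.9 at 12 weeks (male first). With 1 pool of each sex per age, the change of direction was not tested.

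Kcnj4 moved in opposite directions with age in the sexes. From P1 to 12 weeks its log2 difference was 1.61 between the male pools and -1.74 between the female pools. The Kcnj4 counts were 17.2 and 54.5 in the males and 9.93 and 2.26 in the females, and the last of these rests on 2 reads. The difference between these changes was not tested.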

How the results depend on the processing

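No paired analysis was possible because the labels give no replicate numbers and each group is 1 pool. Counts of called members by limma changed as follows. With all genes with a mean above 0 tested, they were 0 from P1 to 2 weeks, 0 from 2 to 12 weeks (30 and 22 members at an unadjusted p under 0.05) and 18 from P1 to 12 weeks. With no trend they were 9 from P1 to 2 weeks and 9 from 2 to 12 weeks. Leaving out 1 library at a time gave 0 to 26 from P1 to 2 weeks, 0 to 18 from 2 to 12 weeks, 17 to 40 from P1 to 12 weeks and 0 throughout for sex. The count test of edgeR called 16, 13 and 36 members for the 3 age comparisons (2854, 2441 and 6781 of all genes). Under scaling to equal totals the median log2 difference of all genes was -0.20 from 2 to 12 weeks and -0.15 from P1 to 12 weeks. It was -0.03 in each before. From 2 to 12 weeks 3 members then rose and 14 fell (23.9% called, beside 18.9% of all genes).

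Members at least 2-fold apart between 2 libraries were also counted with a mean of at least 50. They were 4 for E18.5 to P1 male (8.33% beside 4.56% of all genes) and 6 for E18.5 to P1 female (12.5% beside 8.81%). For sex they were 1 at 2 weeks (2.08% beside 2.38%) and 10 at 12 weeks (20.8% beside 5.95%). With a mean above 0 they were 19 for E18.5 to P1 female (21.1% beside 21.3% of all genes), 13 for sex at P1 (14.4% beside 16.7%), 12 for sex at 2 weeks (13.3% beside 8.55%) and 29 for sex at 12 weeks (32.2% beside 19.1%). A pseudocount of 5 gave 3 for sex at 2 weeks (4.23% beside 2.72% of all genes). The filters change how many genes enter. For the other settings the cause was not tested. Over named members, 336 alternative values of tested comparisons kept their side of the threshold, 103 lost it and 0 reversed. Those members had been picked as called with the same sign in both sexes, so the lack of reversals was largely set by that choice. The alternative settings also share libraries, so their values are not separate evidence. Where a library held 0 reads, a fold is a bound at the floor of 3 reads, and where it held 1 to 3 its counting interval is wide.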
